A study of Mus musculus with 27 samples.

Results

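The 200 processed pseudogenes with the most reads in total RNA of the mouse macrophage line RAW264.7 were examined across total RNA, anti-HuR immunoprecipitates and control IgG immunoprecipitates. The members were the rows of the counts table annotated as processed pseudogene with the largest summed counts over the 12 total RNA libraries: 200 of 10003 such rows, in a table of 55483 genes. The members were thus chosen by their counts in the RNA libraries, and their abundance in those libraries is a description. Cells received DMSO, LPS (lipopolysaccharide, 1 µg/ml) with DMSO, here called LPS, or LPS with TM7nox (10 µM) for 6 h. Per sample 30 M cells were used. TM7nox belongs to the tanshinone mimics, small molecules made to interfere with RNA binding by HuR. Each treatment had 4 total RNA libraries, 4 libraries of RNA recovered with an anti-HuR antibody (RNA immunoprecipitation, RIP) and 1 IgG library, which always carried replicate number 3. All groups came from a single line, the labels name no genetic change in it, and nothing in them says that replicates were separate cultures.

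A processed pseudogene is a copy of a spliced messenger RNA that was reverse transcribed and inserted elsewhere in the genome, so it lacks the introns of its parent and usually its promoter. Highly transcribed housekeeping genes, above all those of ribosomal proteins, are the common parents. Because copy and parent can be nearly identical, a short read may fit both, and a read counted at a pseudogene may stem from the parent's messenger RNA. HuR (gene Elavl1) is an RNA-binding protein that binds U-rich and AU-rich stretches, mostly in 3' untranslated regions, and stabilises many messages of the inflammatory response.

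A parent was assigned to 199 of the 200 members as the best match among protein-coding transcripts of other genes (GRCm39 genome, GENCODE M39 annotation), and Gm12250 had none. The 199 members came from 141 parents, and 87 of them shared their parent with another member. Gapdh, a glycolytic enzyme, had 8 members, Odc1, ornithine decarboxylase of polyamine synthesis, had 5, and the ribosomal protein gene Rps2 had 5. The median identity was 99.4%, 127 members were at least 99% identical to their parent, 28 were identical over the aligned length, and 6 were under 95%. By parent, 56 members belonged to the large ribosomal subunit, 28 to the small subunit, 10 to the glycolysis list (8 of Gapdh and those of Pkm and Gpi1) and 9 to chaperones and folding. Of the 200, 79 overlapped no other annotated gene, 26 overlapped an exon of another gene on the same strand, 39 lay in an intron of another gene on the same strand, and 56 overlapped genes on the other strand only. The newer annotation lists 33 members as transcribed processed pseudogenes and 1, AA414768, as protein coding.

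Coding stretches of 60 bases from 6 parents show how little separates them from copies named in the results. All sequences run 5' to 3' on the strand of the gene, and capitals mark bases that differ from the parent. The Odc1 copies are shown because Odc1 is the parent of Gm7993, the third member by rank, and all of them are named in the LPS results (coding bases 881 to 940 of Odc1). The copies lie at chr5:96122980-96123039 (Gm7993), chrX:101768406-101768465 (Gm9115), chr8:122699910-122699969 (Gm17709), chr1:152605351-152605410 (Gm7278) and chr12:115956050-115956109 (Gm9260), the first on the plus strand and the others on the minus strand.
Odc1: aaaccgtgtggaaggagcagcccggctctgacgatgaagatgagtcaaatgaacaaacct
Gm7993: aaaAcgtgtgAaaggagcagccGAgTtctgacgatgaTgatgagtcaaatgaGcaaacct
Gm9115: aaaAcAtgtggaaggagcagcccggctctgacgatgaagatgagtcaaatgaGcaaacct
Gm17709: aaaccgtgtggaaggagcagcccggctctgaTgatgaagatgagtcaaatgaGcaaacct
Gm7278: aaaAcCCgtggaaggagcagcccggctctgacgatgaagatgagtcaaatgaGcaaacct
Gm9260: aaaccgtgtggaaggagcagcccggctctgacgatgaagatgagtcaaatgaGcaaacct
In this window Gm7993 differed from Odc1 at 7 bases, Gm7278 at 4, Gm9115 at 3, Gm17709 at 2 and Gm9260 at 1, and a single difference was common to all 5 copies.

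The heat shock protein gene Hspa8 is shown (coding bases 410 to 469) because its copy Gm15459 was the most abundant member. Gm15459 (chr5:5833087-5833146, minus strand) had 1 difference in the window and Gm8355 (chr10:14622578-14622637, minus strand) had 5.
Hspa8: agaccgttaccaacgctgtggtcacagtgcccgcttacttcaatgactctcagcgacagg
Gm15459: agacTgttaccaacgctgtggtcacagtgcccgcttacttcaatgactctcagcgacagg
Gm8355: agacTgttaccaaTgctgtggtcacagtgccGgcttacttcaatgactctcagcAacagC
Rpl29, a large subunit ribosomal protein gene, is shown (coding bases 64 to 123) because its copies Gm8210 (chr1:43228379-43228438, plus strand) and Gm5561 (chr1:179348300-179348359, minus strand) were far higher in the replicate 1 RNA libraries with DMSO and with LPS than in their fellow replicates.
Rpl29: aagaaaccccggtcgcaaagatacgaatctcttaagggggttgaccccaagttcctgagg
Gm8210: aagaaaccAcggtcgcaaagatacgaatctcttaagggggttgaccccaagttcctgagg
Gm5561: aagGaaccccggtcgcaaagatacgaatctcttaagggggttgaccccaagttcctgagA

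Ptges3, a co-chaperone of Hsp90 (coding bases 1 to 60), and Atp5mg, a subunit of mitochondrial ATP synthase (coding bases 1 to 60), are shown because Ptges3-ps (chr6:85820962-85821021, plus strand) followed its parent in the immunoprecipitates and Gm10221 (chr5:24786801-24786860, minus strand) went the other way, although both copies were identical to their parents. Myl6, a myosin light chain (coding bases 47 to 106), is shown because Gm5526 (chr1:45896842-45896901, minus strand) departed from it under TM7nox.
Ptges3: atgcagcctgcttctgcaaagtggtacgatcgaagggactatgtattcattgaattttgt
Ptges3-ps: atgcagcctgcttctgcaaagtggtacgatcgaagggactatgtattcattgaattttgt
Atp5mg: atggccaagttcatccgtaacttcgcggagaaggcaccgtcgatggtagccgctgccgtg
Gm10221: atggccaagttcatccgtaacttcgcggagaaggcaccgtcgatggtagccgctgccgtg
Myl6: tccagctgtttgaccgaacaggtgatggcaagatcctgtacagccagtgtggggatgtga
Gm5526: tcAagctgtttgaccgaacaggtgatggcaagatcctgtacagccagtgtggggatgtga

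Library totals were 2.73 to 28.29 M counts for RNA, 19.82 to 41.45 M for RIP and 8.87 to 24.51 M for IgG. All 8 macrophage markers examined reached 5 CPM (counts-per-million, here always with TMM-scaled library sizes) in the RNA libraries, where they summed to between 3.48e+03 and 6.89e+03 CPM. Marker lists of fibroblasts, T cells, B cells and epithelial cells summed to at most 0.4 CPM. The RNA libraries of replicate 1 stood apart for the pseudogenes. In them 43 (DMSO), 24 (LPS) and 17 (LPS with TM7nox) members were more than 4-fold below the median of their 3 fellow replicates, against 0 to 1 in each other RNA library. Of 8538 other genes of at least 5 CPM, 1.9%, 0.41% and 0.34% were that low in the same 3 libraries. The members were held to no such limit, and many averaged under 5 CPM in RNA, such as Gm8341 at 2.02 and Gm41041 at 1.93. Members and other genes were thus not matched in abundance. Altogether 38 members (19%) were at least 2-fold lower in replicate 1 of all 3 treatments, against 0.57% of those other genes and 3 parents, and 30 of the 38 had ribosomal protein parents. The DMSO library of replicate 1 was also the shallowest, with 2.729 M counts. RIP replicate 4 showed a milder form, with 5, 4 and 11 members more than 4-fold low against 0 in the other RIP libraries. Of the other genes 0.15%, 0.13% and 0.22% were that low there. These were the shallowest RIP libraries of their treatments, with 20.7, 26.15 and 19.82 M counts. The part of depth and of the reads' assignment in these departures was not tested.

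**Figure D1:**
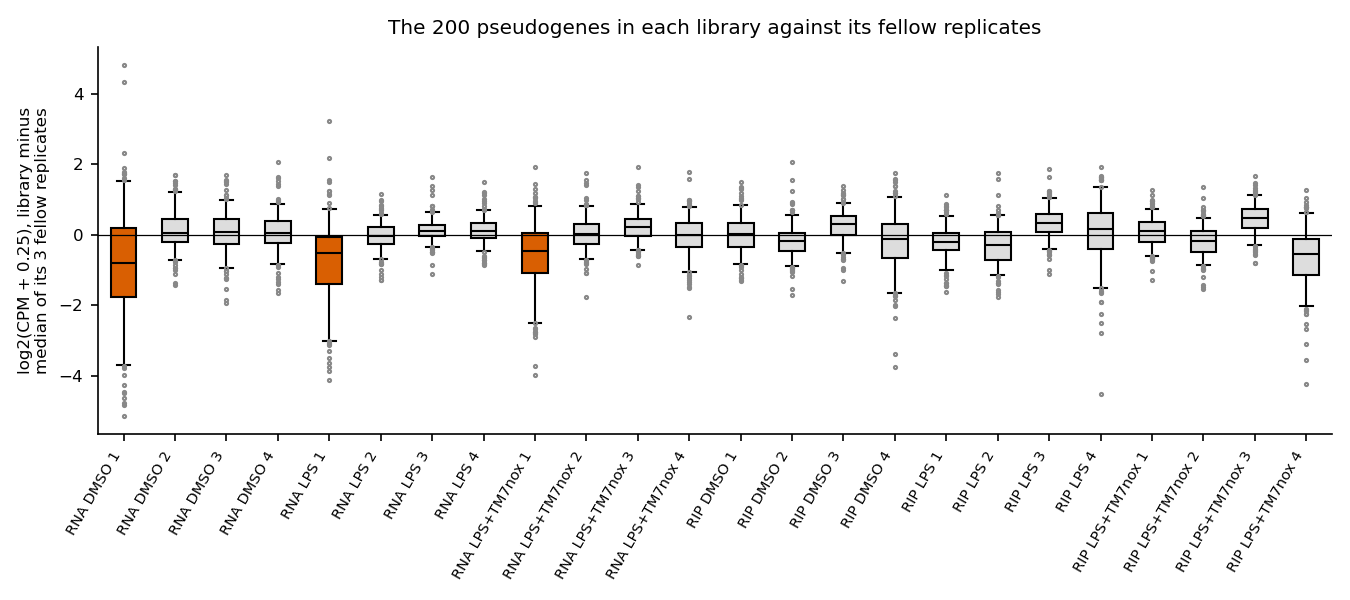
Difference of the 200 pseudogenes in each RNA and RIP library from the median of its 3 fellow replicates, on a log2(CPM + 0.25) scale. Boxes show the quartiles and the median, whiskers the 5th to 95th percentiles and dots the members beyond them, and the replicate 1 RNA libraries (orange) reach lowest, with 43, 24 and 17 members more than 4-fold low.

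The 200 members held 0.569% of all RNA counts and 90.8% of those of all processed pseudogenes, of which 3941 had at least 1 RNA count. A few members carried most of this: the first 3 held 41.7% of the counts of the 200 and the first 10 held 61%, while the median member had 1746 counts over the 12 libraries. The limit fell where counts decline smoothly, with Gm11703 at 665 and Gm10241 at 657 inside, and Rpl27-ps3 at 642 and Gm5518 at 639 outside. All 200 passed the filter on low counts in every fit. The share of library counts in the 200 was 0.57% ± 0.16 with DMSO, 0.59% ± 0.041 with LPS and 0.607% ± 0.032 with LPS and TM7nox in RNA (SD, n = 4 each). The corresponding RIP shares were lower, 0.205% ± 0.028, 0.26% ± 0.021 and 0.245% ± 0.05 (SD, n = 4 each), and the 3 IgG libraries lay between 0.475% and 0.643%. Without Gm8210 and Gm5561 the RNA shares were 0.465% ± 0.025, 0.558% ± 0.036 and 0.585% ± 0.029 (SD, n = 4).

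Gm15459, the copy of Hspa8 on chromosome 5 (ENSMUSG00000100801, chr5:5831615-5833555), was the most abundant member. It reached 567, 492, 700.1 and 636 CPM in DMSO replicates 1 to 4, 1014, 873, 1159 and 1131 CPM with LPS, and 1324, 1280, 1402 and 1123 CPM with LPS and TM7nox. Every LPS library thus lay above every DMSO library, whereas the LPS and TM7nox libraries overlapped. Gm15772, the copy of Rpl26 (chr5:3286431-3286868), ranked next, with means of 430 ± 80.2, 571 ± 70.7 and 642 ± 69.2 CPM in the same order (SD, n = 4). Gm7993, a copy of Odc1 (chr5:96122099-96123482), was the third, at 118, 92.1, 44.8 and 48.9 CPM in DMSO replicates 1 to 4 and 558, 432, 706 and 624 CPM with LPS.

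Gm8210, the fifth member by rank, was highest in the replicate 1 libraries. It stood at 1966, 96.7, 105 and 82.8 CPM in DMSO replicates 1 to 4, and replicate 1 alone gave 9189 of its counts there. Replicate 1 was again highest with LPS (542 CPM against 115 to 135) and with TM7nox (269 CPM against 122 to 144). Gm5561, the other copy of Rpl29 shown above, had the same order, at 206, 7.03, 11.9 and 4.33 CPM with DMSO. The copy of the ribosomal protein gene Rpl23a, Gm10132, went the opposite way, at 1.5, 90, 27.5 and 49.5 CPM with DMSO and 5.73, 113, 64.9 and 68.1 CPM with LPS. The remaining members of the first 10 were copies of the ribosomal protein genes Rplp0 (Gm8730) and Rpl3 (Rpl3-ps1), of Gapdh (Gm13394), of the enolase gene Eno1b (Gm4735), which the glycolysis list does not hold, and of Ftl1-ps1 (Ftl2-ps), a gene annotated as protein coding that resembles the ferritin light chain gene Ftl1.

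**Figure D2:**
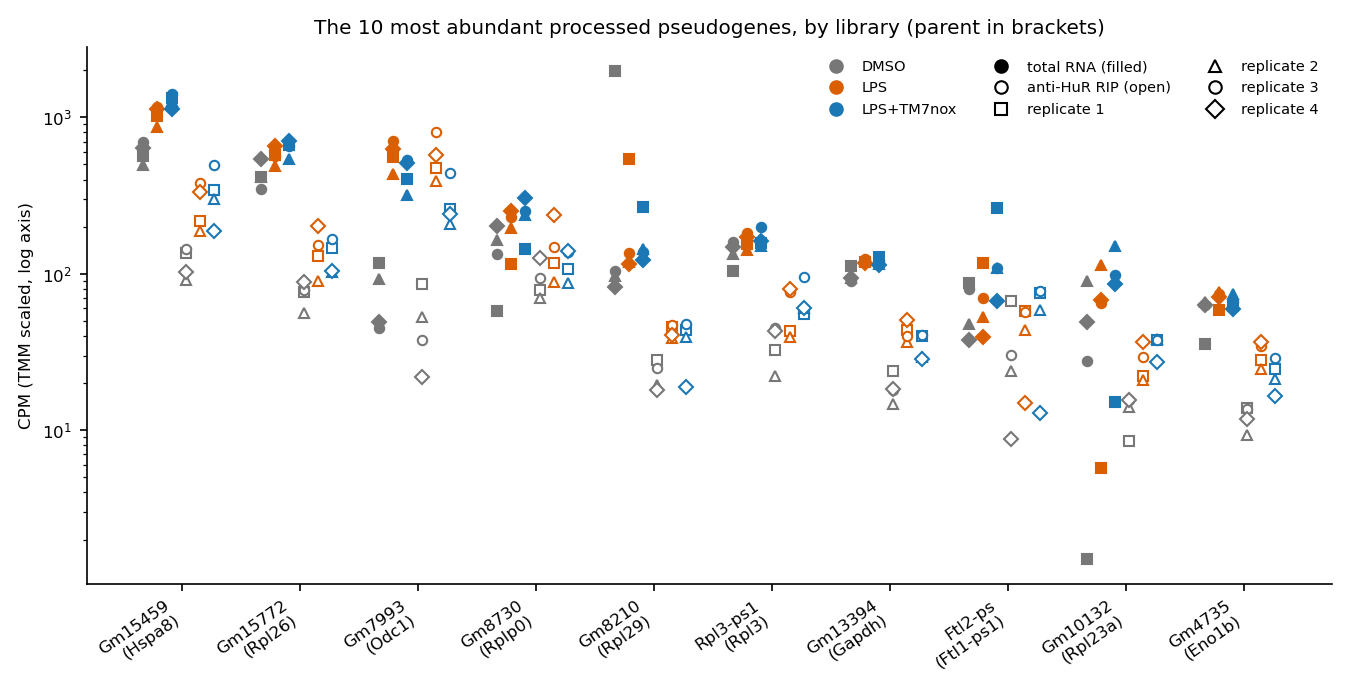
CPM of the 10 most abundant processed pseudogenes in each RNA library (filled) and RIP library (open), on a log axis, with colour for treatment and shape for replicate. Most RIP points lie below the RNA points of the same treatment, and Gm8210 and Gm10132 show the replicate 1 RNA libraries (squares) far from the others, in opposite directions.

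Per kilobase of transcript, most members lay far below their parents. The median RNA level was 6.5% of the parent's CPM per kilobase over the 192 members whose parent reached 1 CPM (quartiles 2.22% and 36.5%), and 109 were under 10%. Gm15459 stood at 50.7% of Hspa8, Gm7993 at 39.4% of Odc1 and Gm13394 at 18.3% of Gapdh. In 21 members the pseudogene was at or above the parent. Gm15772 stood at 985% of Rpl26, Gm8210 at 5981% of Rpl29 (3057% without DMSO replicate 1, 1979% without replicate 1 of all 3 treatments), Ftl2-ps at 1613% of Ftl1-ps1 and Rps10-ps2 at 1072% of the ribosomal protein gene Rps10. Ftl1-ps1 was low (9.5 CPM), and against Ftl1, the next match at 98.73% identity, Ftl2-ps stood at 66.8%. Of the 21 members, 4 were below their next match in this way. The parents of 7 members were not quantifiable in this way, among them the spliceosome gene Snrpf, which was under 1 CPM. Counts may be split between a parent and its near-identical copies, so these levels are uncertain. They also depend on the length of the matched parent transcript, which was 3249 bases for Rpl29 beside 483 for Gm8210. In CPM alone, Gm8210 averaged 319.6 and Rpl29 35.95 in RNA.

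Anti-HuR immunoprecipitates held less of most of the 200 than IgG, and far more of a small set. Of the 200 members, 147 were lower and 22 higher over IgG at an adjusted p below 0.05 (edgeR quasi-likelihood test over all genes, Benjamini-Hochberg adjustment), with a median log2 difference of -1.28. Over all 14973 genes tested, 68.1% were called, 34.2% lower and 33.8% higher, with a median of -0.00. The other 787 processed pseudogenes tested went the other way, with 137 lower, 347 higher and a median of 1.11. These 787 passed the low-count filter on the RIP and IgG libraries, whereas 435 passed it on the RNA libraries. Some may have entered through high RIP counts, and the part of that filter was not tested. The 200 were chosen for high counts in RNA, and the part of that choice in the direction was not tested. With DESeq2's scaling in place of TMM, the median over all genes moved to 0.127 in this comparison, and 142 members were lower and 23 higher. Libraries did not overlap for 83 lower and 17 higher members, against 17.1% and 18.8% of all genes. The IgG group has 3 libraries, 1 per treatment, so treatment was a covariate and no test within a treatment was possible. The spread between IgG libraries of the same treatment could not be measured. All 3 IgG libraries carried replicate number 3, whereas the RIP libraries carried every replicate number. Assay and replicate number were thus partly mixed in this fit. Blocking on the replicate number gave 136 members lower and 23 higher, where 33.7% of all genes were lower and 31.5% higher.

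Most copies of translation and metabolism genes were lower than IgG. Of the large subunit copies 47 of 56 were lower and 0 higher, of the small subunit copies 26 of 28 and 0, of the glycolysis copies 10 of 10, and of the copies of mitochondrial energy genes 5 of 5. Coding ribosomal protein genes gave the same picture, with 81 of 85 lower and 1 higher. Of the chaperone copies 8 of 9 were lower, and of the members in no listed class 35 of 63 were lower and 13 higher. RNA-binding and splicing copies held 1 lower and 3 higher of 5, and ubiquitin and proteasome copies 2 and 3 of 6. Among the members that passed the naming rule, Gm8355 fell by 2.40 (SE 0.271, adjusted p = 1.95e-07) and Gm15459 fell by 2.34 (SE 0.194, adjusted p = 3.05e-09), beside -2.36 for their parent Hspa8. Gm25432, a copy of the nucleolar gene Nop56, fell by 2.18 (SE 0.188, adjusted p = 5.32e-09).

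The highest member over IgG was Ptges3-ps. It had 311, 370, 401 and 307 CPM in DMSO RIP replicates 1 to 4, 435, 518, 708 and 423 CPM with LPS, and 483, 765, 579 and 444 CPM with LPS and TM7nox, against 10.6, 16.2 and 17.3 CPM in the IgG libraries of the same treatments. All 12 RIP libraries were therefore above all 3 IgG libraries, by 5.02 on the log2 scale (SE 0.239, adjusted p = 6.06e-12). Its parent Ptges3 differed by 5.14. Gm4202, a copy of the 14-3-3 zeta gene Ywhaz, was higher by 4.94 (SE 0.348, adjusted p = 3.85e-10; Ywhaz 5.00). Gm21596, a copy of the chromatin protein gene Hmgb1, was higher by 4.33 (SE 0.622, adjusted p = 4.41e-06; Hmgb1 4.47). Copies of the prothymosin gene Ptma (Gm4617, 3.80), of Snrpf (Gm13092, 3.59), of the Notch pathway factor gene Rbpj (Rbpj-ps3, 3.02) and of the poly(A)-binding protein gene Pabpc1 (Gm16580, 1.54) were also among the 22.

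RIP was also set against total RNA. The members were chosen for high counts in RNA, the denominator here, which lowers RIP over RNA, so these values are a description and nothing is read from the counts. Under DMSO 142 of 200 members were lower in RIP and 22 higher, where 70.4% of all genes passed the threshold (33.4% lower, 37.0% higher). Under LPS 120 were lower and 20 higher, where 63.7% of all genes passed (30.8% and 32.9%), and under LPS with TM7nox 143 and 21, where 69.9% passed (34.8% and 35.2%). The median log2 differences were -1.67, -1.21 and -1.38, beside 0.04, -0.06 and -0.09 over all genes. DESeq2's scaling moved the medians over all genes to 0.193, 0.114 and 0.129, and the lower and higher counts to 137 and 24, 103 and 20, and 121 and 22. Without the RNA libraries of replicate 1 the numbers called were 177, 162 and 180. Ptges3-ps, at 15.5 ± 3.79 CPM in DMSO RNA and 347 ± 45.9 CPM in DMSO RIP (SD, n = 4), differed by 4.64, 4.97 and 5.13 in the 3 treatments. Gm4202 differed by 4.24, 4.91 and 5.08. At the other end Gm10095 differed by -3.04, -1.78 and -1.91. Its assigned parent BC004004 (98.97% identity) and the ribosomal protein gene Rpl21 (98.76%) matched it almost equally well. Gm8210 differed by -4.36, -2.35 and -2.09, and by -2.01, -1.52 and -1.83 without the RNA libraries of replicate 1. Under LPS with TM7nox the lowest members that met the naming rule were Gm10269, a copy of the ribosomal protein gene Rpl35 (-2.60), Gm12338, a copy of the cytochrome oxidase subunit gene Cox7c (-2.47), and Gm15772 (-2.23). Of the coding ribosomal protein genes, 79 of 84 were lower in RIP under DMSO and 1 was higher.

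The effect of LPS was examined in total RNA first. Of 200 members 28 were called higher and 3 lower, where 42.0% of all genes changed (20.2% higher, 21.7% lower), and the median member differed by 0.24 against -0.04 for all 12369 genes. With the replicate number as a block 47 rose and 4 fell, where 25.2% of all genes were higher and 27.2% lower, and without the RNA libraries of replicate 1 the numbers were 51 and 3. Libraries of both groups did not overlap for 26 members higher and 1 lower with LPS, against 20.4% and 18.1% of all genes. The choice of members used these libraries. Ranked by the DMSO counts alone 14 members would lie outside the first 200, among them 9 of the 28 counted as higher, and ranked by the LPS counts alone 8 would, among them Gm7353, 1 of the 3 counted as lower. For those members the difference between LPS and DMSO is given without a test, in RNA and also in RIP, whose libraries pair with the RNA libraries by number. Bulk libraries cannot tell a change in the number of cells carrying an RNA from a change per cell. Of the ribosomal protein copies, 3 of 84 rose and none fell, and of the coding ribosomal protein genes 2 of 83 rose and 0 fell. With the replicate block these became 9 of 84 and 46 of 83, still with 0 lower. The 10 copies on the glycolysis list held no call, and 1 with the block. The 5 copies of mitochondrial energy genes held 0 calls in both fits.

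Gm7993 and Gm17709, copies of Odc1, were higher with LPS in RNA, by about as much as the parent. Gm7993 rose by 2.87 (SE 0.311, adjusted p = 5.18e-06) and Gm17709 by 2.67 (adjusted p = 9.94e-05), and Odc1 itself rose by 2.79. The copies Gm9115, Gm7278 and Gm9260, which ranked 259, 293 and 345 by DMSO counts, were chosen through the treated libraries. Their fitted differences of 2.72, 2.82 and 3.01 are a description. For Gm7993 and Gm17709 no LPS library overlapped a DMSO library. Gm9115 stood at 4.07, 1.54, 1.05 and 0.5 CPM with DMSO and at 10.2, 8.08, 10.8 and 9.72 CPM with LPS. These copies share a parent and may share reads with it, so they are not 5 independent observations.

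The largest difference was that of Bambi-ps1 (ENSMUSG00000081219, chr2:122297416-122298007), a copy of the TGF-beta pseudoreceptor gene Bambi. It had 0.428, 0.0504, 0.229 and 0.3 CPM in DMSO RNA replicates 1 to 4, from 2, 2, 7 and 9 counts, and 23.3, 24.8, 43.9 and 40.5 CPM with LPS. It had 20 of its 4571 RNA counts in the DMSO libraries, so the LPS and TM7nox libraries chose it, and the fitted difference of 7.32 is a description. Bambi was listed with a mean of 0 CPM in RNA. The nucleoside transporter gene Slc28a2, 5784 bases away on the other strand, rose by 6.26 (adjusted p = 1.09e-09), and Slc28a2b, 17415 bases away on that strand, by 5.62. Gm12250, the member with no parent, is overlapped on its strand by a long noncoding RNA gene of the same name in the newer annotation, and overlapping genes were left out of the parent search. It had no counts in DMSO replicate 1 and stood at most at 0.403 CPM in the other DMSO libraries, against 6.7 to 10.1 CPM with LPS. It too was chosen through the treated libraries, with 25 of 1368 counts in DMSO, and its fitted difference was 5.12. The nearest tested neighbour on its strand, Mrpl22 at 8153 bases, differed by 0.33 (adjusted p = 0.191). The interferon-inducible GTPase genes Igtp, 10002 bases away, and Irgm2, 10606 bases away, on the same strand rose by 3.54 and 2.89, and Gemin5, 19029 bases away on the other strand, differed by -0.03.

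Gm12715, a copy of the gamma actin gene Actg1, stood at 6.42, 6.13, 7.08 and 4.33 CPM with DMSO and at 13.7, 17.6, 18.1 and 20.7 CPM with LPS. It rose by 1.50 (SE 0.224, adjusted p = 9.66e-05), beside 1.70 for Actg1. The Hspa8 copy Gm15459 rose by 0.75 (SE 0.139, adjusted p = 0.000612), and Hspa8 by 0.79. Beside Gm7353, a copy of Zc3h3 described further on, the members called lower were Hist1h2al, a copy of a histone H2A gene, and Gm11223. Hist1h2al stood at 8.13, 41.1, 17.5 and 73.4 CPM with DMSO and at 6.12, 9.39, 11.2 and 22.2 CPM with LPS, so that the groups overlapped. Its fitted change was -1.59 (adjusted p = 0.0281) and -0.98 without DMSO replicate 4, its highest library. The call was lost without that library, without DMSO replicate 2 and without LPS replicate 1, 2 or 3. Gm11223, a copy of the microtubule regulator gene Stmn1, stood at 20.5, 24.4, 27.3 and 19.7 CPM with DMSO and at 15.2, 14.5, 10.2 and 8.24 CPM with LPS, and fell by 0.99 (SE 0.311, adjusted p = 0.0195). Its call was lost when DMSO replicate 3, LPS replicate 3 or LPS replicate 4 was left out, at changes of -0.90, -0.91 and -0.83. Among the most abundant members, Gm15772 (0.36), Gm13394 (0.25), Gm8730 (0.45) and Gm10132 (0.49) missed the threshold, with adjusted p-values of 0.0691, 0.0802, 0.282 and 0.682, and passed it with the replicate block. For Gm8210 the fitted change of -1.39 (adjusted p = 0.26) turned to 1.25 without DMSO replicate 1.

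In the anti-HuR immunoprecipitates 88 of 200 members were called higher with LPS and 1 lower, where 44.7% of all 13614 genes changed (23.5% higher, 21.2% lower), and the median member differed by 0.83 against -0.00. Of the 88, 10 were among the 14 members that the treated RNA libraries brought in, and the lower one was Gm7353, which the LPS counts alone would not have chosen. Of 537 other processed pseudogenes tested, 54 were higher and 58 lower, with a median of -0.06. With the replicate block 138 rose and 3 fell, where 30.7% of all genes were higher and 28.6% lower. Without DMSO replicate 2 the total called was 59 in place of 89, and without LPS replicate 3 it was 57. Of the large subunit copies 23 of 56 rose, of the small subunit copies 13 of 28, of the glycolysis copies 8 of 10 and of the chaperone copies 5 of 9. With the block these were 42, 21, 8 and 8. Among coding ribosomal protein genes 67 of 83 rose and 0 fell. Copies of RNA-binding and of mitochondrial energy genes held 0 calls of 5 each, and 2 and 0 with the block. Whether the change in RIP differed from that in RNA was not tested. The RIP share of the library counts held by the 200 moved from 0.205% to 0.26% between DMSO and LPS.

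Bambi-ps1 stood at 0.202, 0.0656, 0.125 and 0 CPM in DMSO RIP and at 15.9, 14.2, 26.1 and 23.8 CPM in LPS RIP, a fitted difference of 7.46. Of the Odc1 copies, Gm9115 had a fitted difference of 3.82. Gm7993, which the DMSO counts alone would also have chosen, rose by 3.46 (SE 0.375, adjusted p = 2.12e-06), beside 3.43 for Odc1. Gm7993 stood at 85.9, 52.9, 37.6 and 21.9 CPM in DMSO RIP and at 476, 393, 807 and 573 CPM in LPS RIP. Several of the most abundant members rose together with their parents. Gm15459 rose by 1.21 (Hspa8 1.09), Gm15772 by 0.91 (Rpl26 0.62), Gm13394 by 1.16 (Gapdh 1.07) and Gm8210 by 0.89 (Rpl29 0.81). Rpl3-ps1 rose by 0.72 (adjusted p = 0.0342), a call lost without DMSO replicate 1 or 2 or LPS replicate 3 or 4, at 0.49 to 0.63. Gm8730 and Ftl2-ps (0.64 and 0.38) missed the threshold at adjusted p-values of 0.0796 and 0.582, and passed it with the replicate block.

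**Figure D3:**
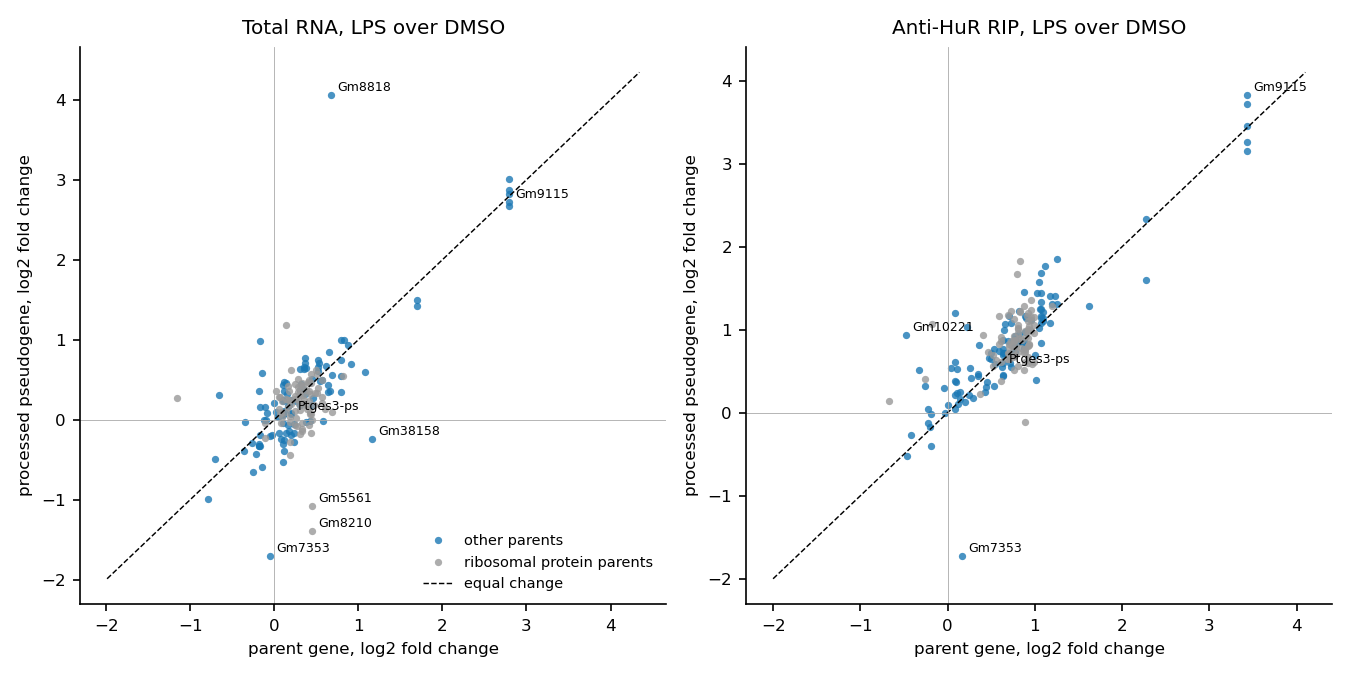
Log2 fold change of LPS over DMSO for each pseudogene (vertical) against its parent gene (horizontal), in total RNA (left) and in anti-HuR RIP (right), with copies of ribosomal protein genes in grey and the dashed line at equal change. Most points lie near the line, the Odc1 copies near 2.79 and 3.43 on the horizontal axis, while Gm7353 lies below it in both panels.

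With TM7nox added to LPS few of the pseudogenes passed the threshold in RNA. Called higher were 6 of 200 and lower 5, where 13.8% of all genes changed (7.37% higher, 6.40% lower), and the median was 0.05 against -0.00. Of these, Gm14270 (higher) would lie outside the first 200 by LPS counts alone and Gm48786 (lower) by TM7nox counts alone, so the choice used their difference. With the replicate block 16 were higher and 11 lower, where 12.3% and 12.7% of all genes were, and without the RNA libraries of replicate 1 the numbers were 8 and 6. Leaving out any 1 library other than TM7nox replicate 1 brought the total to between 5 and 7, and TM7nox replicate 1 left out gave 8. Groups did not overlap for 6 higher and 9 lower members, against 11.1% and 10.3% of all genes.

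Bambi-ps1 fell with TM7nox in RNA, to 8.08, 7.24, 8.16 and 6.37 CPM, below all 4 LPS libraries, by 2.15 (SE 0.258, adjusted p = 0.000104). Slc28a2 fell by 2.03 there (adjusted p = 2.23e-05). Gm12715 fell by 0.96 (SE 0.216, adjusted p = 0.00887), beside -0.98 for Actg1. Gm12164, assigned to the same parent as Ftl2-ps, rose by 1.27 (SE 0.262, adjusted p = 0.00523), from 5.29, 5.71, 5.04 and 3.69 CPM to 18.3, 10.3, 10.3 and 8.65 CPM. Gm10557, on chromosome 18, rose by 0.98 (SE 0.193, adjusted p = 0.00371), and Gm20056 by 0.97 (SE 0.235, adjusted p = 0.0135). Gm20056 lies on the strand of Tm4sf19 and overlaps it, and that gene rose by 1.08 (adjusted p = 0.013), while its parent Chp1 differed by 0.07 (adjusted p = 0.809). The Odc1 copies did not pass the threshold, with values between -0.51 and -0.27 for the 5.

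In the immunoprecipitates 5 members were called higher with TM7nox and 11 lower, where 16.2% of all genes changed (8.64% higher, 7.61% lower), with a median of -0.10 against -0.03. Of the 11, Gm48786 would lie outside the first 200 by TM7nox counts alone, and Gm7353 by TM7nox or by LPS counts. With the replicate block 16 were higher and 24 lower, where 16.6% and 17.0% of all genes were. The total of 16 dropped to 9 without LPS replicate 1, 8 without TM7nox replicate 2, 10 without LPS replicate 3 and 9 without TM7nox replicate 4. Copies of the ribosomal protein genes held 0 calls of 84, and 2 higher with the block. Of the 5 copies of Actg1, Tuba1b, Cfl1 and Myl6, 1 was higher and 3 were lower. Bambi-ps1 fell by 2.75 (SE 0.298, adjusted p = 2.31e-05), to 3, 1.81, 3.91 and 2.73 CPM. Gm9115 fell by 0.98 (SE 0.282, adjusted p = 0.0268), a call lost without LPS replicate 3 (-0.80), TM7nox replicate 2 (-0.79) or TM7nox replicate 4 (-0.99), and its parent Odc1 differed by -0.87 (adjusted p = 0.0787). Gm12751, a copy of the RNA polymerase subunit gene Polr1d, fell by 1.03 (SE 0.2, adjusted p = 0.00266), and Polr1d fell by 0.67. Gm10557 rose by 1.12 (SE 0.224, adjusted p = 0.00314) and AA414768 by 0.87 (SE 0.173, adjusted p = 0.00299). Gm4204, a copy of the histone chaperone gene Nap1l1, rose by 0.59 (SE 0.17, adjusted p = 0.0261) beside 0.64 for Nap1l1, and its call was lost without LPS replicate 1 (0.59).

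The largest change with TM7nox in RIP among the 200 was that of Gm5526, which is named after its values were seen. It had 0.889, 0.734, 1.49 and 0.8 CPM in LPS RIP and 11.4, 14.1, 13.7 and 12.8 CPM with TM7nox, with no overlap, and rose by 3.77 (SE 0.273, adjusted p = 5.94e-07). In RNA it stood at 2.95, 1.9, 2.22 and 1.92 CPM with LPS and at 5.06, 2.94, 4.8 and 4.05 CPM with TM7nox, a rise of 0.90 (SE 0.272, adjusted p = 0.0405) lost on leaving out any 1 of TM7nox replicates 1, 3 and 4 or LPS replicates 2, 3 and 4, at 0.79 to 0.92. The IgG library of LPS with TM7nox held 2.79 CPM. The parent Myl6 differed in RIP by -0.45 (adjusted p = 0.223), although the copy differed from it at 1 base of the 60 printed above and was 99.3% identical in all. Gm5526 lies on chromosome 1 (chr1:45896492-45896914), and the newer annotation places another gene's exon over it on the same strand.

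**Figure D4:**
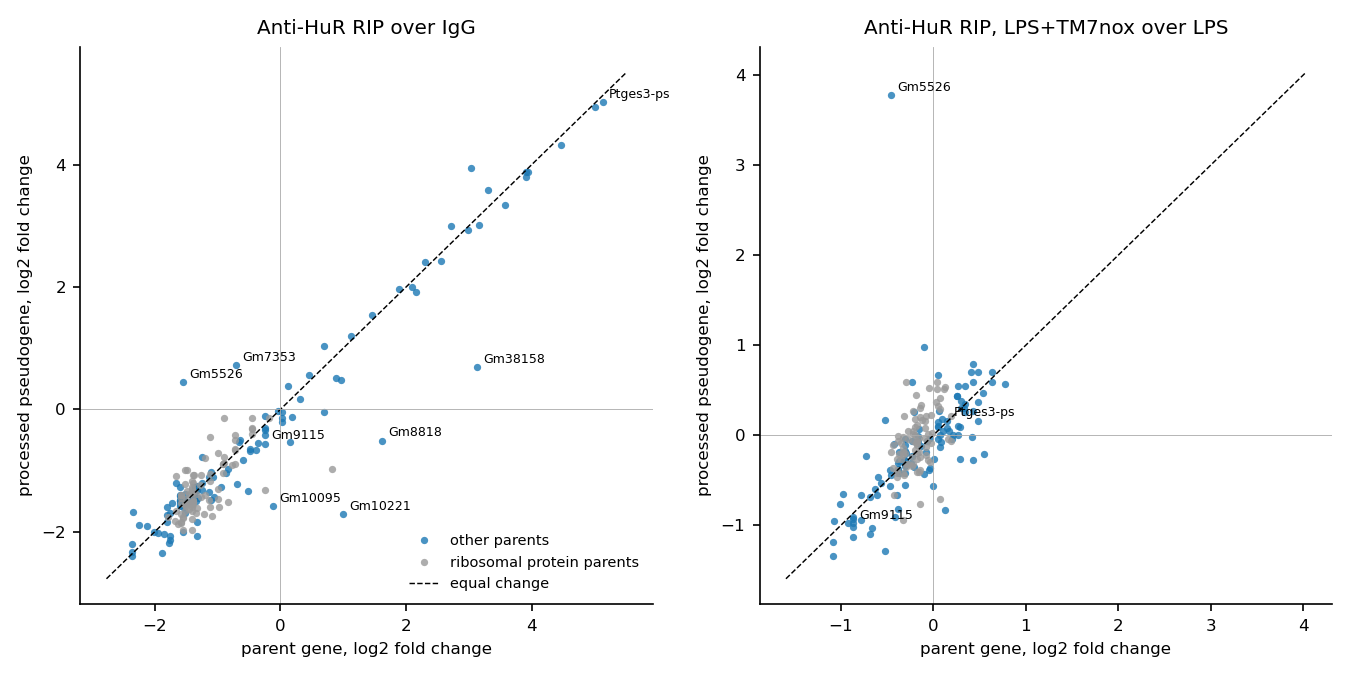
Log2 difference of each pseudogene (vertical) against that of its parent (horizontal), for anti-HuR RIP over IgG (left) and for LPS with TM7nox over LPS in RIP (right), with copies of ribosomal protein genes in grey and the dashed line at equal difference. On the left most points lie near the line, from Hspa8 copies near -2.36 up to Ptges3-ps at 5.02. There 8 pairs differ by more than 1, among them Gm10221 (-1.72, parent 0.99). On the right Gm5526 stands alone at 3.77.

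In most pairs the pseudogene's change lay near the parent's. Over 194 pairs of member and parent, Pearson's r was 0.95 for anti-HuR over IgG, 0.85 for LPS in RIP and 0.59 for TM7nox in RIP, and for RIP over RNA it was 0.89 (DMSO), 0.93 (LPS) and 0.93 (LPS with TM7nox). Over 193 pairs it was 0.72 for LPS and 0.75 for TM7nox in RNA. The pairs share libraries, some share a parent, and copy and parent may share reads, so these values are a description. Where member and parent were both called, the direction was the same for 20 of 20 with LPS in RNA, 75 of 75 with LPS in RIP, 2 of 2 and 4 of 4 with TM7nox in RNA and RIP, and 157 of 159 over IgG. For RIP over RNA it was the same for 156 of 158, 131 of 131 and 152 of 153 in the 3 treatments, the exceptions being Gm10221 and Gm38158 with DMSO and Gm5526 with TM7nox. The tallies for RIP over RNA are a description too, because the RNA libraries chose the members. The median absolute difference between member and parent was 0.17 for LPS in RNA and 0.16 both for LPS in RIP and for anti-HuR over IgG, and 0.31, 0.19 and 0.20 for RIP over RNA in the 3 treatments. Differences above 1 on the log2 scale were found in 8 pairs for LPS in RNA, 5 for LPS in RIP, 2 each for TM7nox in RNA and RIP, 8 over IgG, and 17, 10 and 8 for RIP over RNA.

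Some of the pairs that departed are named here after their values were seen. Gm10221 was identical to Atp5mg (listed as Atp5l in the table) over 309 bases and lay in an intron of Abcf2 on the same strand (chr5:24786552-24786860). It had 0.538, 0.524, 0.748 and 0.246 CPM in DMSO RIP and 2.5, 2.81 and 1.69 CPM in the 3 IgG libraries, and was lower over IgG by -1.72 (SE 0.425, adjusted p = 0.00143), while Atp5mg was higher by 0.99 (SE 0.267, adjusted p = 0.00281). In RNA Gm10221 averaged 4.65 CPM and Atp5mg 5.52 CPM, so both levels were low. How reads were split between copy and parent was not tested. Gm7353 was 99.9% identical to Zc3h3. In RNA it stood at 1.93, 4.31, 8.68 and 6.49 CPM with DMSO and at 1.26, 1.64, 1.9 and 2.21 CPM with LPS, so that DMSO replicate 1 overlapped the LPS libraries, and the fitted difference was -1.70, given without a test because the member ranked 225 by LPS counts. In RIP it had 6.49, 5.41, 8.73 and 12.5 CPM with DMSO and 2.53, 2.15, 3.09 and 2.46 CPM with LPS, with no overlap and a fitted difference of -1.72. Zc3h3 differed by -0.05 and 0.16. Gm8818, chosen through the treated libraries, had counts of 0, 14, 0 and 1 in DMSO RNA replicates 1 to 4 and 28, 32, 123 and 91 with LPS, a fitted difference of 4.05, while its parent 4930453N24Rik differed by 0.68.

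**Figure D5:**
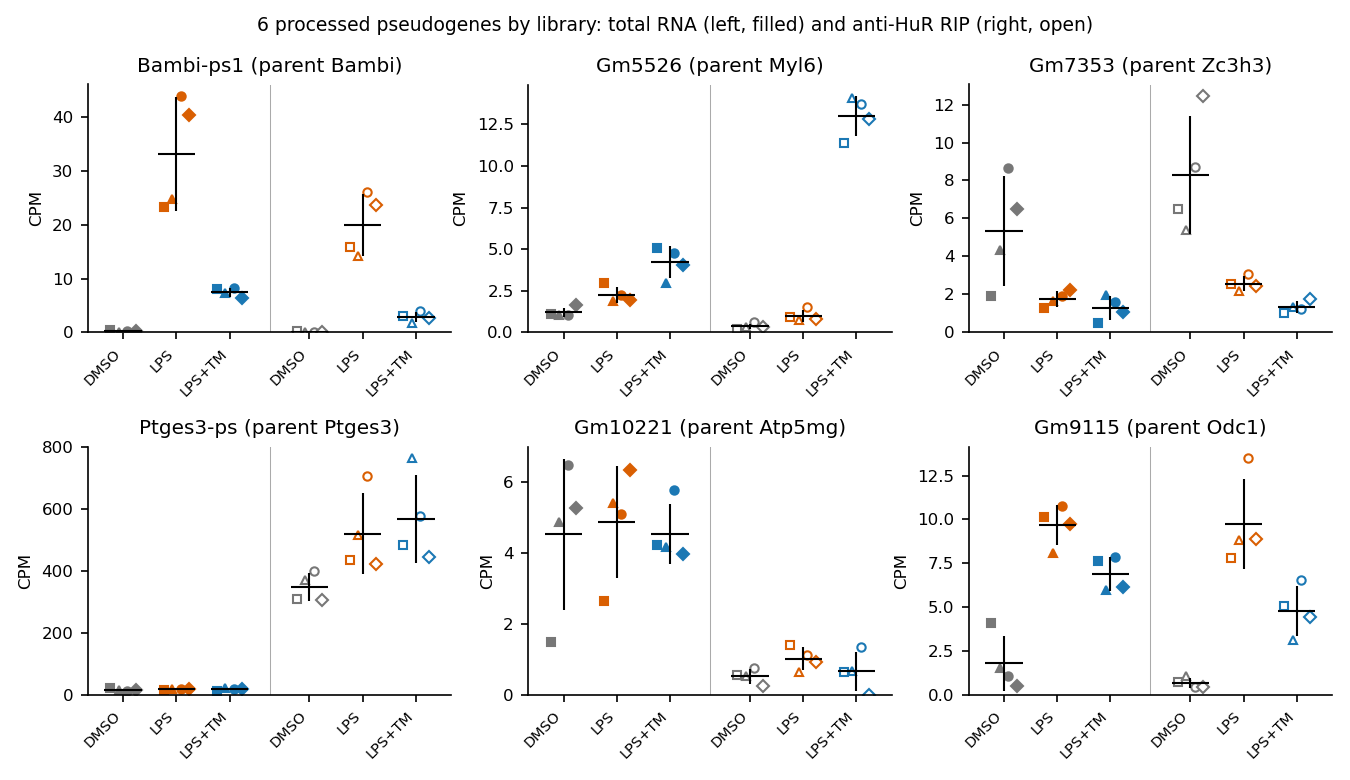
CPM of 6 processed pseudogenes in each RNA library (left of the grey line, filled) and RIP library (right, open) by treatment, where squares, triangles, circles and diamonds are replicates 1 to 4 and black bars give the mean ± SD (n = 4). Bambi-ps1 is higher with LPS than with DMSO and lower again with TM7nox in both assays, Gm5526 is high in the 4 RIP libraries with TM7nox, and Ptges3-ps is high in all RIP libraries.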

How the data were processed

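The deposited table gives raw counts per gene, as whole numbers of reads, for 27 libraries of RAW264.7 cells: total RNA, anti-HuR RIP and IgG. Per the submitters' processing notes, FastQC 0.11.9, STAR, HTSeq, DESeq2 and the GRCm39 build were used. For the annotation release, the strand setting and reads that map to several places, the choice is not given in the sources used here. Per the labels' protocols, libraries came from the SMART-Seq Stranded kit. No molecular identifiers are stated, so PCR copies may be counted separately.

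Counts were fitted over all genes of the table with edgeR 4.0.16 (quasi-likelihood test, TMM scaling, filterByExpr with a minimum count of 10) in R 4.3.3, with Benjamini-Hochberg adjustment over all genes and a threshold of 0.05. RNA libraries, RIP libraries, both together (6 groups), and RIP with IgG (treatment as covariate) were separate fits. Standard errors are the log2 fold change divided by the root of the F statistic, and all changes are log2. The scripts were tested on simulated data. Alternatives were DESeq2 1.42.0, its size factors, no filter, the replicate block, replicate numbers 1 and 2 or 3 and 4 alone, each library left out, and, added after seeing the data, the RNA libraries of replicate 1 left out. P-values measure the spread between these samples, which may be technical. Members and lists were chosen with earlier results of these data known.

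The 200 IDs all matched GENCODE M39. The parent was the best BLAST 2.17.0 match of the spliced pseudogene among protein-coding transcripts, at 80% identity over 50% of its length, without genes that overlap the locus. Levels per kilobase use the length of the matched parent transcript. Named members were the 10 most abundant and, per comparison and direction, up to 3 with the largest change among those called, at a mean of at least 5 CPM and without overlap between groups. Outside this rule, Rbpj-ps3, Gm13092, Hist1h2al, Gm17709, Rps10-ps2, Gm14270, Gm10221, Gm7278, Gm12250, Gm9260, Gm8818, Gm7353, Gm16580, Gm38158, Gm5526 and Gm48786 were named after their values were seen. The replicate numbers come from the labels, and same-numbered libraries deviated together (28 correlations of 0.143 to 0.506, the own number highest in 27), so they were taken to pair the samples.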

Additional observations from a re-analysis of the deposited data

Results flagged for a closer look

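A library was set apart where its gap to the nearest fellow replicate was too large a part of the group's range (Dixon's 95% limit for 4 libraries). This held for 30 of 282 groups of named members and of the share of counts, and 13 of the 30 were RNA libraries of replicate 1. Chance gives about 1 in 20 for independent groups of normally spread values. These groups share libraries and include members named after their values were seen, so the number cannot be judged against that rate.

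In replicate 1 of RNA, Gm8210 stood at 1966 CPM with DMSO (others 82.8 to 105), 542.3 with LPS (115 to 135) and 268.6 with LPS and TM7nox (122 to 144). Gm5561 stood at 206.1 CPM with DMSO (4.33 to 11.9) and 84.97 with LPS (5.8 to 9.66). With DMSO, Gm13394 stood at 111.9 CPM (90.4 to 94), Gm4735 at 35.31 (62.7 to 65.7) and Gm48786 at 1.07 (0.2 to 0.229), Gm38158 at 10.91 (1.46 to 2.39) and Rps10-ps2 at 3.424 (8.72 to 9.36). With LPS, Gm10557 stood at 15.88 CPM (10.2 to 11.1) and Rps10-ps2 at 4.294 (11.5 to 12.5). The share of DMSO replicate 1 held by the 200 was 0.813% (0.466% to 0.515%).

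In other RNA libraries, Gm8818 stood at 0.3529 CPM in DMSO replicate 2 (0 to 0.0333), Gm5526 at 1.632 in DMSO replicate 4 (1.02 to 1.07), Gm48786 at 3.391 in TM7nox replicate 2 (0.73 to 0.947) Gm16580 at 2.675 in TM7nox replicate 2 (3.1 to 3.17) and Gm10221 at 5.795 in TM7nox replicate 3 (3.96 to 4.24). In LPS replicate 2, Gm7278 stood at 5.909 CPM (7.03 to 7.25) and Gm9260 at 3.644 (6.7 to 6.94).

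In RIP, Rpl3-ps1 stood at 94.7 CPM in TM7nox replicate 3 (55 to 60.4), Gm12338 at 3.995 in LPS replicate 3 (2.06 to 2.25) and Gm10095 at 0.7866 in DMSO replicate 2 (1.72 to 1.81). With DMSO, Gm14270 stood at 0.2622 CPM in replicate 2 (0.394 to 0.405), Rps10-ps2 at 2.775 in replicate 3 (1.23 to 1.48) and Gm38158 at 1.816 in replicate 1 (0.64 to 0.811). In replicate 4, Gm10132 stood at 27.46 CPM with TM7nox (37.6 to 38.3), Gm10557 at 10.18 with LPS (14.7 to 15.6) Gm12715 at 4.802 with LPS (9.12 to 9.69) and Gm13092 at 13.78 with LPS (320 to 352). What set these libraries apart was not tested.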

How the results depend on the processing

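Direction and call of the 85 results on single members were kept under 1250 of their alternatives, 25 gained a call, 47 lost it and 10 turned. The number of members called by LPS in RNA was 31, and was 51 with the replicate block, 10 with replicates 1 and 2 alone, 76 with replicates 3 and 4 alone, 54 without the RNA libraries of replicate 1, and 23 to 36 with each library left out. For TM7nox in RNA 11 were called, 19 with no filter, 27 with the replicate block, 0 with replicates 1 and 2 alone, 24 with replicates 3 and 4 alone and 5 to 8 with each library left out. For LPS in RIP 89 were called, 141 with the replicate block, 36 with replicates 1 and 2 alone and 57 to 94 with each library left out. For TM7nox in RIP 16 were called, 40 with the replicate block, 7 with replicates 1 and 2 alone, 7 with replicates 3 and 4 alone and 8 to 16 with each library left out. RIP over RNA gave 140 (LPS) and 164 (TM7nox), and 87 and 97 with replicates 1 and 2 alone. With each library left out it gave 155 to 174 (DMSO), 119 to 152 (LPS) and 138 to 168 (TM7nox), and anti-HuR over IgG gave 139 to 172. The cause of these shifts was not tested.

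For Gm8210, LPS in RNA turned from -1.39 to 0.41 with replicates 3 and 4 alone, 0.36 without the RNA libraries of replicate 1 and 1.25 without DMSO replicate 1, and lay between -2.30 and 1.25 with each library left out. For Ftl2-ps, LPS in RNA turned from 0.12 to -0.11 with replicates 3 and 4 alone, -0.03 without the RNA libraries of replicate 1, -0.27 without LPS replicate 1, -0.00 without DMSO replicate 2 and -0.08 without DMSO replicate 4, with 0.33 as the highest value on leaving out a library (DMSO replicate 1). Its anti-HuR over IgG value turned from -0.15 to 0.04 with the replicate block and 0.05 without RIP TM7nox replicate 4, with -0.33 as the lowest (without RIP DMSO replicate 1). Beyond the members the report names, the replicate block changed no other call among these results. Values of members with few counts, such as Bambi-ps1 with DMSO, are uncertain.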
